A study of Mus musculus with 21 samples.

Results

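The MHC class I genes and the genes that load peptide onto class I were followed through a NanoString panel of 750 mouse genes. The set of 10 was fixed by gene symbol: the heavy chains H2-K1, H2-D1 and H2-T23, the light chain B2m, the peptide transporter subunits Tap1 and Tap2, the loading factor Tapbp, the immunoproteasome subunits Psmb8 and Psmb9, and the transactivator Nlrc5. Of these, 9 had a row in the deposited matrix and all 9 passed the filter on low values (a value of at least 20 in at least 4 libraries), as did 689 of the 750 genes. B2m was not analysed here.

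Class I molecules display peptides from inside the cell to CD8 T cells and are read by inhibitory receptors of natural killer cells. The proteasome, with its inducible subunits Psmb8 and Psmb9, cuts proteins into peptides. The Tap1 and Tap2 proteins form a transporter that carries peptides into the endoplasmic reticulum, where tapasin, the product of Tapbp, holds empty class I molecules next to it. Interferons and NLRC5, a transactivator that acts at class I promoters, are known to raise these genes together. STING is the adaptor of the cytosolic DNA sensor cGAS and is known to induce type I interferon.

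The libraries were total RNA of whole tumors grown from LLC (Lewis lung carcinoma) cells, an established line from a C57BL/6 lung tumor, in the right flank of male mice. The 9 wild-type sham libraries came from C57BL/6 hosts whose tumors were injected with PBS, and the 8 wild-type agonist libraries from C57BL/6 hosts whose tumors were injected with a STING agonist, named in the series text as cGAMP. The 4 STING-deficient sham libraries came from TMEM173(gt/gt) hosts injected with PBS. The gt (goldenticket) allele is a point mutation in the gene for STING, and in all 3 groups the implanted tumor cells carry their own copy of that gene. STING-deficient hosts given agonist were not analysed here. The labels number the libraries but do not say that each is a separate mouse, so the p-values measure the spread between these libraries, which may be technical. They give the tissue as lung, while the protocol describes flank tumors; Foxj1, the panel gene among the lung markers, was between 3.24 and 8.90 in wild-type sham libraries, 1.94 and 66.2 in agonist libraries and 3.32 and 10.3 in STING-deficient sham libraries.

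Nearly all deposited values are whole multiples of a step per library, as molecule counts times a factor would be. Their sums ran from 225810 to 299484 in the sham libraries of both genotypes and from 249154 to 888242 in the agonist libraries. The median of the 689 tested genes was 0.98 higher on the log2 scale after agonist than in wild-type sham. A gene at the panel median thus already shows a near-doubling. The values of the 9 genes and the counts of other gene lists are therefore also given against that median or after TMM scaling. TMM scaling sets most genes of each library level, so it would also remove a true rise shared by most of the panel. Whether the shared rise was technical was not tested, and neither scaling is taken as the correct one. The values of 3 agonist libraries, replicates 6, 7 and 8, carry 2 decimals where all other libraries carry more digits, and results are given with and without them. Tmem173, the gene that carries the goldenticket mutation, was at 54.2 ± 11.1 (SD, n = 9) in wild-type sham and 50.4 ± 12.8 (SD, n = 4) in STING-deficient sham; a point mutation leaves the transcript in place, so this level does not check the labels.

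Of the 9 genes, 8 lie on chromosome 17 in the MHC region, and Nlrc5 on chromosome 8. Psmb9, Tap1, Psmb8 and Tap2 are neighbours in that order, between the class II genes H2-DMb1 and H2-Ob. Promoter windows from RefSeq (GRCm38.p6, 250 bases before to 50 after a start site) were given for 7 of the 9, the exceptions being Tap2 and Nlrc5. The 5 shown carry matches to motifs that class I promoters are known for. They include both genes of the H2-D1 to H2-K1 ratio, which is compared further down. The motifs are an interferon response element (ISRE-like, GAAANNGAA), a STAT site (GAS-like, TTCNNNGAA) and an NF-kB site (kB-like, GGGNNTTCC). The others are the core letters of the X2 box (TGACG) and Y box (CCAAT), to which the complex around NLRC5 is known to bind. Both strands were searched, motifs may overlap, and matches are in capitals. Fixed letters miss variant forms of a site, so a window without a match may still hold the element.
H2-K1: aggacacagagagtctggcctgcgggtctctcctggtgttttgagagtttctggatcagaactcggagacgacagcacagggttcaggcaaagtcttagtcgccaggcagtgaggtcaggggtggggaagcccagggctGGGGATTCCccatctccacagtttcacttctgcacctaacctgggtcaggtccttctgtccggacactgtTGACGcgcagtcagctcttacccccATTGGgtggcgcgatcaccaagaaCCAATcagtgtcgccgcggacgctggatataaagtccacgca
H2-D1: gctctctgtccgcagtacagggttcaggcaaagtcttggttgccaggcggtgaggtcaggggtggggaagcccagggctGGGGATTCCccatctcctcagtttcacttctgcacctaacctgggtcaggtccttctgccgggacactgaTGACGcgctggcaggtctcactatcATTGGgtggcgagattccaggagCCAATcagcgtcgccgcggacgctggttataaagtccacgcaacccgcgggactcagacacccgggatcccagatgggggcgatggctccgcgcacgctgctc
H2-T23: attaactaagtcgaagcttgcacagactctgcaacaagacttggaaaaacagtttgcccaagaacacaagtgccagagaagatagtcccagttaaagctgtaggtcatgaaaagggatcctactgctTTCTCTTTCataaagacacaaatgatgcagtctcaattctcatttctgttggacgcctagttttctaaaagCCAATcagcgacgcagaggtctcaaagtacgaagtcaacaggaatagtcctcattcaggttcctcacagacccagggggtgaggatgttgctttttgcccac
Tap1: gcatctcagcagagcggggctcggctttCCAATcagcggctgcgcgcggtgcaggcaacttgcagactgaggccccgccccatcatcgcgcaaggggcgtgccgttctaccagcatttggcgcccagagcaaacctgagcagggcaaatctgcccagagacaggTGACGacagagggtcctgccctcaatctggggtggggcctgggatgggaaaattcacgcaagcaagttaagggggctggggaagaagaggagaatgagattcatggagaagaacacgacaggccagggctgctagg
Psmb8: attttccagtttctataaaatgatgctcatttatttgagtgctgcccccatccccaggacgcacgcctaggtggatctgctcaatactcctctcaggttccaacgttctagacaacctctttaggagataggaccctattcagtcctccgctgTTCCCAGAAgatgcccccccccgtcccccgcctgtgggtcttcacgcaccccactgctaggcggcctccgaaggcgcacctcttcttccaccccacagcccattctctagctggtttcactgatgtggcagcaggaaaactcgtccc

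The H2-K1 window is chr17:34000298-34000597 on the minus strand and the H2-D1 window is chr17:35262844-35263143 on the plus strand. Both hold, in the same order, the kB-like match GGGGATTCC, TGACG, a Y box on the opposite strand (ATTGG) and a Y box on the same strand. In both, the kB-like match starts 70 bases before TGACG and TGACG starts 25 bases before the first Y box. Over the 100 bases from the kB-like match through that Y box, 89 are identical between the genes. The kB-like match starts 111 bases before the annotated start site in H2-K1 and 171 in H2-D1. Another H2-K1 window, from 34000284, holds the same matches, with the kB-like match 125 bases before its start. These distances depend on the start site annotated and are not read as a difference in layout. Neither gene had an ISRE-like match. Because variant forms were not searched, this does not show that the windows lack an interferon response element.

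The H2-T23 window (chr17:36032652-36032951, minus strand) holds an ISRE-like match, TTCTCTTTC, from 123 bases before the start site, and a Y box from 52. The Tap1 window (chr17:34187306-34187605, plus strand) shares 275 bases with that of Psmb9 on the other strand, so its TGACG, 86 bases before the Tap1 start, and its Y box belong to both windows. Psmb8 (chr17:34197945-34198244, plus strand) has a GAS-like match, TTCCCAGAA, from 97 bases before its start. The Tapbp window, not shown, has 2 Y boxes and no match to the other motifs. Of 32851 windows in the RefSeq table, 8.56% hold GAAANNGAA, 8.30% TTCNNNGAA, 5.82% GGGNNTTCC, 20.8% TGACG and 37.4% CCAAT, so matches to the shorter motifs are common, and a match describes letters and not a bound site.

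The comparison of agonist with sham in wild-type hosts asks what intratumoral STING activation did to the class I genes. All 9 genes were higher after agonist in the authors' scaling (limma, adjusted p under 0.05), by 0.68 for Tapbp to 1.83 for Nlrc5 on the log2 scale. In the same test 71.1% of the 689 genes were called higher and 0.726% lower, so a count of 9 of 9 is close to what the panel as a whole did. The median of the 9 was 1.35, against 0.98 over all tested genes. After TMM scaling none of the 9 was called (limma), with 9.43% of tested genes called higher. Of the 9, 3 had an unadjusted p under 0.05 (limma), against 280 of the 689 tested genes. The median of the 9 was then 0.44 against 0.09 over all tested genes, and H2-D1 and Tapbp turned to -0.01 and -0.23.

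**Figure D1:**
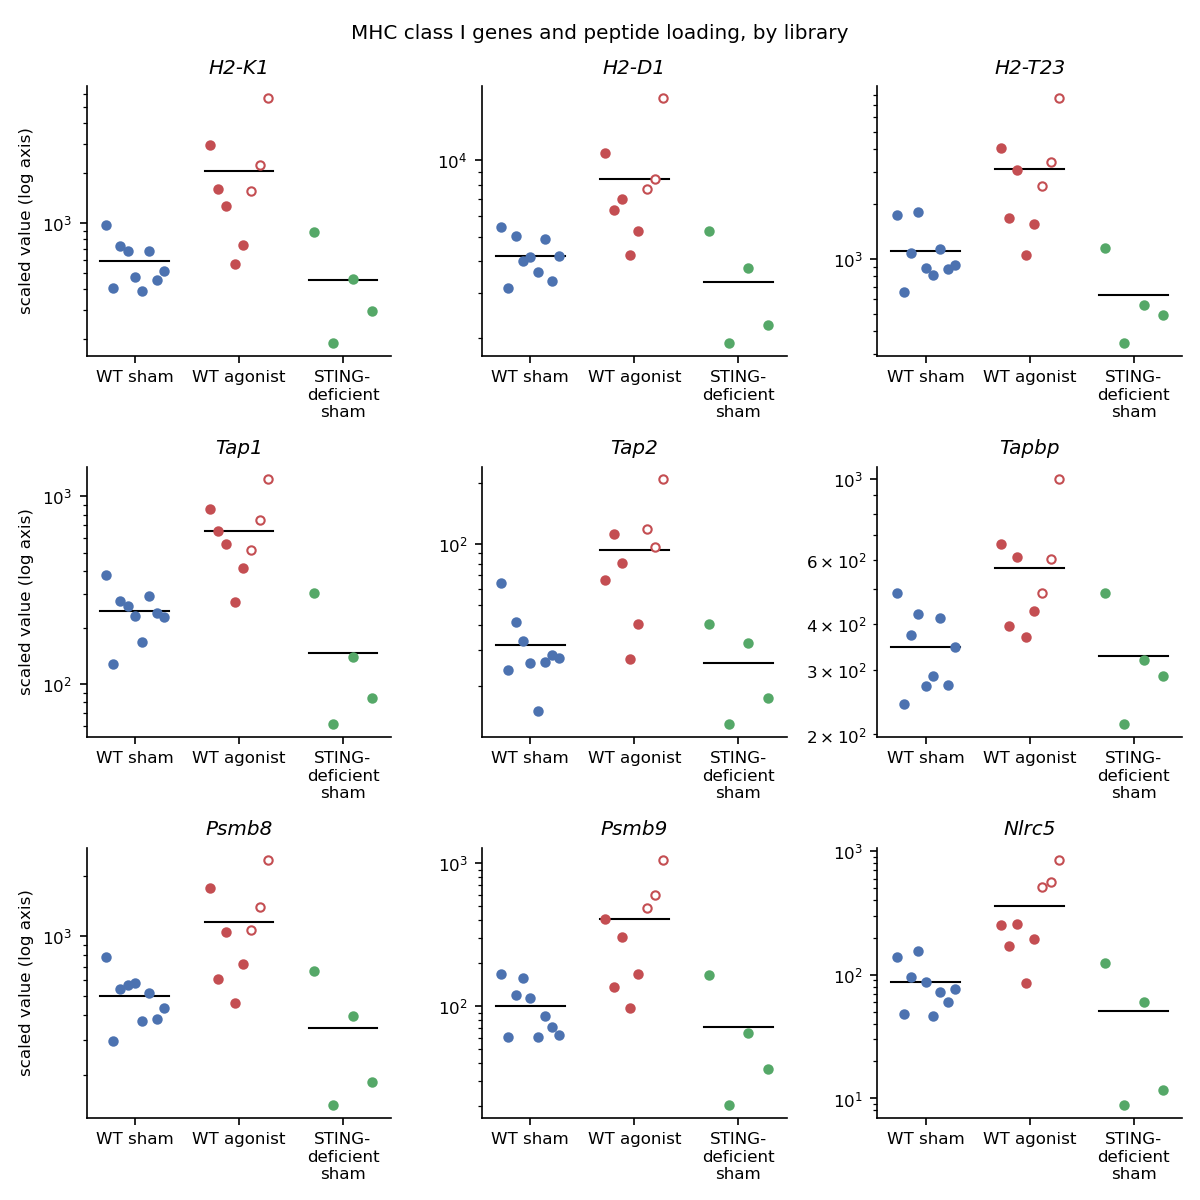
Scaled value (log axis) of each of the 9 genes in every library. Points are libraries, open points are agonist replicates 6, 7 and 8, and bars are group means; the agonist libraries reach above every sham library for each gene, and their lowest library lies within the wild-type sham range.

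The classical heavy chains present peptide to CD8 T cells. H2-K1 was at 389, 512 and 971 (lowest, median, highest) in the 9 wild-type sham libraries and at 568, 1578 and 5637 in the 8 agonist libraries. Of the agonist libraries, 6 lay above the highest sham library and 2 within the sham range. The log2 difference was 1.53 ± 0.37 (SE), with an adjusted p of 0.00309, the 99th largest of 689.

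H2-D1, the other classical heavy chain, was at 3134, 4150 and 5451 in wild-type sham and at 4213, 7377 and 17531 after agonist. Again 6 of 8 agonist libraries exceeded every sham library. Its log2 difference of 0.89 ± 0.24 (SE; adjusted p = 0.00488) ranked 386th and lay 0.09 below the panel median, and it was -0.01 after TMM scaling. H2-T23 encodes Qa-1, the non-classical chain that shows leader peptides of other class I chains to the receptor CD94/NKG2A. Its values were 661, 930 and 1808 in wild-type sham and 1050, 2801 and 7640 after agonist, with 5 of 8 agonist libraries above all sham libraries. The log2 difference was 1.32 ± 0.33 (SE; adjusted p = 0.00338).

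Tap1 was at 128, 238 and 383 in wild-type sham and at 272, 604 and 1235 after agonist. For Tap1 7 of 8 agonist libraries stood above every sham library, as for Nlrc5, and no other member reached 7. The log2 difference was 1.35 ± 0.31 (SE; adjusted p = 0.00276), with the lowest adjusted p of the 9. Tap2, its partner in the transporter, was lower on the panel, at 15.0, 27.3 and 64.4 in wild-type sham and 27.1, 88.9 and 209 after agonist. Its lowest library has an implied count, the value divided by the step of that library, of 14. It rose by 1.40 ± 0.35 (SE; adjusted p = 0.00360), close to the change of Tap1.

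Tapbp had the smallest change of the 9. It was at 243, 346 and 488 in wild-type sham and at 369, 545 and 996 after agonist, and 4 of 8 agonist libraries exceeded the sham range. The log2 difference of 0.68 ± 0.21 (SE; adjusted p = 0.00911) was 0.30 below the panel median, ranked 466th, and turned to -0.23 ± 0.19 (SE) after TMM scaling.

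The immunoproteasome subunits Psmb8 (LMP7) and Psmb9 (LMP2) replace constitutive catalytic subunits and change which peptides are cut. Psmb8 was at 298, 516 and 787 in wild-type sham and at 460, 1056 and 2394 after agonist, a log2 difference of 1.11 ± 0.32 (SE; adjusted p = 0.00701). Psmb9 was at 61.0, 84.8 and 168 in wild-type sham and at 96.8, 355 and 1046 after agonist. Here 6 of 8 agonist libraries stood above the sham range, and the 3 highest were replicates 6, 7 and 8. The log2 difference of Psmb9 was 1.72 ± 0.44 (SE; adjusted p = 0.00403), the 54th largest.

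Nlrc5 had the largest change of the set. It was at 46.0, 76.5 and 155 in wild-type sham and at 85.2, 257 and 843 after agonist, with 7 of 8 agonist libraries above every sham library. The log2 difference was 1.83 ± 0.48 (SE; adjusted p = 0.00450), a 3.56-fold change and the 33rd largest of 689. Against the panel median, the differences were 0.85 for Nlrc5, 0.74 for Psmb9 and 0.55 for H2-K1. They were 0.42 for Tap2, 0.37 for Tap1, 0.34 for H2-T23, 0.13 for Psmb8, -0.09 for H2-D1 and -0.30 for Tapbp.

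**Figure D2:**
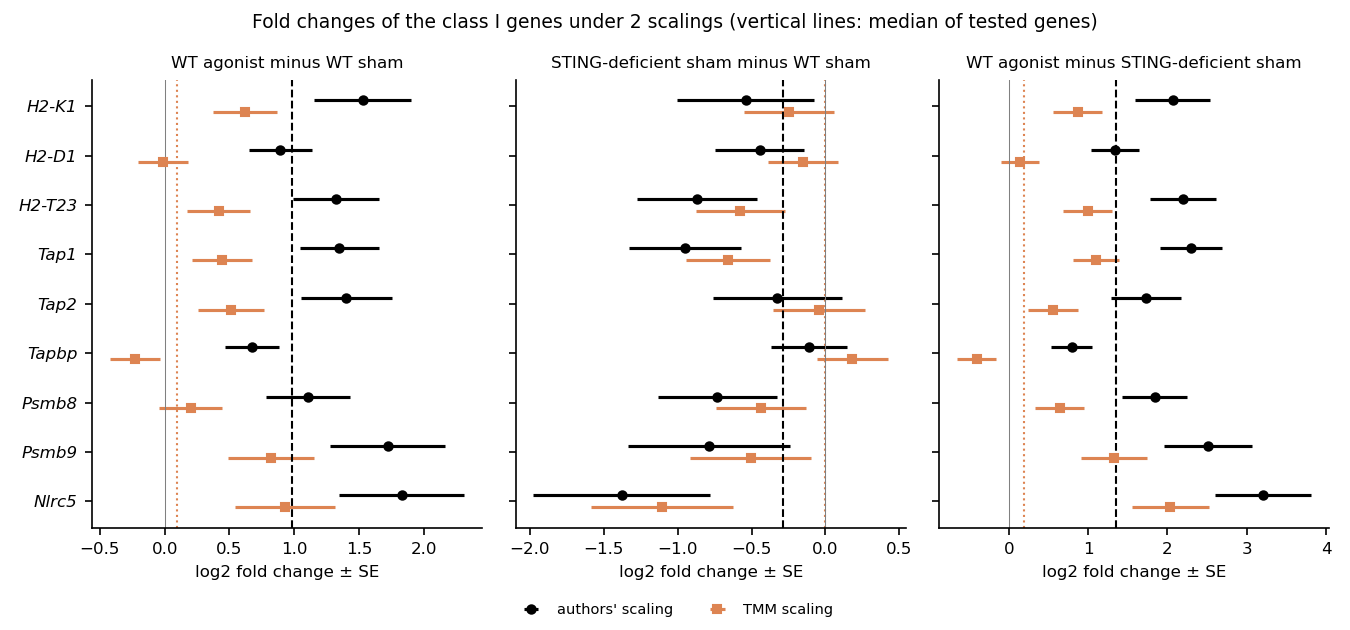
Log2 fold change with its SE of each gene in the 3 comparisons, in the authors' scaling (circles) and after TMM scaling (squares). Dashed and dotted vertical lines are the medians of the 689 tested genes in each scaling; Nlrc5 lies farthest to the right after agonist (1.83 and 0.93), and after TMM scaling H2-D1 (-0.01) and Tapbp (-0.23) fall below 0 there.

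The agonist libraries differed widely among themselves, and in every one of the 9 genes replicate 4 was lowest and replicate 8 highest. The mean of the 9 log2 values, set against the wild-type sham mean, was 0.04 in agonist replicate 4 and 0.63 in replicate 5. It was 0.93 in replicate 2, 1.28 in replicate 3, 1.50 in replicate 6, 1.70 in replicate 1, 1.77 in replicate 7 and 2.69 in replicate 8. Replicate 4 thus sat at the sham level and replicate 8 well above the rest. The panel median of the same libraries moved too, from -0.06 in replicate 4 to 1.61 in replicate 8, but it did not keep the same order: in replicate 3 it was 0.39, so the class I genes were 0.89 above it, while in replicate 2 it was 1.22 and the class I genes were 0.29 below it (a difference of -0.29). Without replicates 6, 7 and 8 the 9 differences were 0.50 to 1.16. Of the 9, 9 had an unadjusted p under 0.05 (limma), as had 333 of the 689 tested genes. None of the 9 passed after adjustment (limma), and 0.435% of tested genes were called higher.

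**Figure D3:**
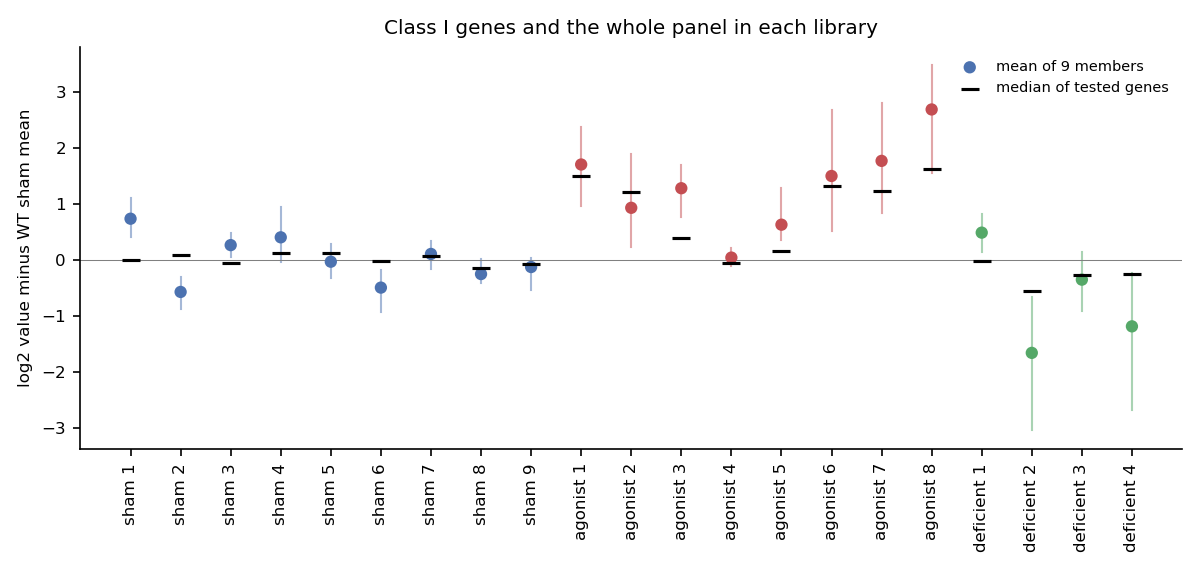
Mean of the 9 class I genes (points), their range (vertical lines) and the median of the 689 tested genes (dashes) in each library, on the log2 scale against the wild-type sham mean. Agonist replicate 8 is highest at 2.69 and STING-deficient replicate 2 lowest at -1.67, where the panel median is at -0.56.

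Markers of other cells moved with this comparison. Ptprc, which marks all leukocytes, was between 234 and 465 in wild-type sham and between 322 and 3223 after agonist. The summed values of 7 T cell markers ran from 167 to 256 in sham and from 183 to 1114 after agonist, and 6 of the 7 were called higher. The sums of 4 natural killer cell markers ran from 113 to 371 and from 278 to 1487, with 4 of 4 called higher. Those of 5 macrophage and monocyte markers ran from 1400 to 1879 and from 1602 to 10673, with 5 of 5 called higher. Over the panel 71.1% of the 689 tested genes were called higher in the same test. After TMM scaling 4 of 7 T cell, 1 of 4 natural killer cell and 0 of 5 macrophage and monocyte markers were called higher (limma; 5, 3 and 2 at an unadjusted p under 0.05), and Ptprc was called at 0.78. Without agonist replicates 6, 7 and 8 none of these markers was called (limma; 6, 4 and 5 of them, and Ptprc, at an unadjusted p under 0.05). Over the panel 9.43% of tested genes were called higher after TMM scaling and 0.435% without those 3 libraries. At an unadjusted p under 0.05 (limma) were 280 of the 689 genes in the first setting and 333 in the second. In the authors' scaling 5 of 5 endothelial, 2 of 2 epithelial and 2 of 4 fibroblast markers were also called higher. No marker was at 0 in any group. In whole-tumor RNA a change in the number of cells of a type and a change in RNA per cell cannot be told apart, and the part of these cells in the class I values was not tested.

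Other genes of the pathway were counted in the same test, where 71.1% of the 689 tested genes were called higher. After TMM scaling 9.43% were, and 280 of the 689 had an unadjusted p under 0.05 (limma). Of 7 other class I pathway genes tested, 6 were higher after agonist, among them Cd1d1, which presents lipids (1.18 ± 0.33, SE), and H2-M3, which presents formylated peptides (1.19 ± 0.35, SE). The exception was Psmb7, a constitutive proteasome subunit, at 0.05 ± 0.17 (SE; adjusted p = 0.807), and it was called lower after TMM scaling at -0.86. The H2-Q probes H2-Q10 (1.21 ± 0.38, SE) and H2-Q2 (1.18 ± 0.39, SE) can share signal with near-identical paralogs and are uncertain. Shared signal was not tested for the H2-K1, H2-D1 and H2-T23 probes either, a limit that holds for the H2-D1 to H2-K1 ratio below. After TMM scaling none of these 7 was called higher (limma; 1 at an unadjusted p under 0.05, Psmb7, which was lower), and their median went from 1.18 to 0.29.

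Of 8 class II genes, which present peptides to CD4 T cells, 7 were higher, with a median of 1.41. The panel share called higher, 71.1% (9.43% after TMM scaling), stands beside this count and those of the lists below. Such counts alone do not set a list apart. The class II genes called higher included H2-DMb1, which loads class II (1.11 ± 0.26, SE), and Cd74, the invariant chain (1.47 ± 0.39, SE). Also among them were H2-Ab1, a class II chain (1.58 ± 0.41, SE), and Ciita, the class II transactivator (1.34 ± 0.36, SE). After TMM scaling none of the 8 was called (limma; 1 at an unadjusted p under 0.05) and the median was 0.52, with H2-DMb1 at 0.21, Cd74 at 0.56, H2-Ab1 at 0.67 and Ciita at 0.48. Of 18 genes of the interferon, TNF and NF-kB pathways that induce class I, 15 were higher. Among them were the interferon regulatory factor Irf1 (1.25 ± 0.25, SE), the kinase Jak2 (1.12 ± 0.22, SE) and Stat2 (1.002 ± 0.23, SE), and Irf2 (0.67 ± 0.16, SE), which turned to -0.23 after TMM scaling. After TMM scaling 0 of the 18 were called higher and 3 lower (limma; 4 at an unadjusted p under 0.05), with Irf1 at 0.35, Jak2 at 0.22 and Stat2 at 0.10. Of 10 receptor genes that read class I, 9 were higher, with a median of 1.53. Klrc1 and Klrd1, which encode NKG2A and CD94 and bind the H2-T23 product, rose by 2.05 ± 0.38 (SE) and 1.47 ± 0.32 (SE). Klrc2, which encodes NKG2C, rose by 1.84 ± 0.42 (SE), and 3 of the 10 receptor genes, Klrc1, Klrc2 and Klra7, were still called higher after TMM scaling; the Klra7 probe is uncertain because Klra genes are near-identical. Without agonist replicates 6, 7 and 8 no gene of these 4 lists was called (limma). At an unadjusted p under 0.05 (limma) were 3 of 7, 8 of 8, 12 of 18 and 7 of 10, in the order given. Of the 689 tested genes, 333 were at that level.

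The comparison of STING-deficient with wild-type hosts under sham asks what host STING contributes without agonist. None of the 9 genes was called (limma; 3 had an unadjusted p under 0.05: H2-T23, Tap1 and Nlrc5), where 2.76% of tested genes were called lower and 0 higher, with 64 of 689 at an unadjusted p under 0.05. All 9 differences were negative in the authors' scaling, from -0.11 for Tapbp, which was 0.18 after TMM scaling, to -1.38 for Nlrc5. Their median was -0.73, against -0.28 over the panel. The 4 STING-deficient libraries did not move together: replicate 1 had the highest value of the group and replicate 2 the lowest in each gene.

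Nlrc5 was at 123, 8.80, 60.8 and 11.6 in STING-deficient replicates 1 to 4. Replicates 2 and 4 fell below the whole wild-type range of 46.0 to 155, with implied counts as low as 13, and replicates 1 and 3 lay within it. The log2 difference was -1.38 ± 0.60 (SE; adjusted p = 0.445). Psmb9 showed the same split, at 164, 20.3, 65.5 and 36.5, where replicates 2 and 4 were below the lowest wild-type library. Its log2 difference was -0.79 ± 0.55 (SE; adjusted p = 0.664).

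Tap1 was at 305, 60.9, 139 and 83.8 in the 4 libraries, a log2 difference of -0.95 ± 0.38 (SE; adjusted p = 0.353). Replicates 2 and 4 were again below all wild-type libraries and replicate 1 was within their range. Without STING-deficient replicate 1 the difference of Tap1 was -1.39, with an adjusted p of 0.0377 (limma). Among 21 fits that each left out 1 library, it was the only 1 in which a member was called. The adjusted p of Tap1 reached 0.979 in these fits (limma). H2-T23 was at 1150, 343, 557 and 490, with 3 of 4 libraries below the lowest wild-type library, and differed by -0.87 ± 0.41 (SE; adjusted p = 0.507).

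The classical heavy chains had smaller differences. H2-K1 was at 877, 189, 459 and 295, a difference of -0.54 ± 0.46 (SE), and H2-D1 at 5270, 1897, 3770 and 2248, a difference of -0.45 ± 0.30 (SE). In both genes replicates 2 and 4 were below the wild-type range. Psmb8 was at 663, 141, 397 and 185, with a difference of -0.73 ± 0.40 (SE). Tap2 was at 40.3, 12.9, 32.4 and 17.4, and Tapbp at 487, 213, 321 and 289; each had 1 library below the wild-type range.

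Of the inducers of class I, 2 of 18 were called lower in STING-deficient hosts, and both are named because of that count. Irf7, the interferon regulatory factor that amplifies type I interferon, was between 12.2 and 48.8 in the 4 libraries and between 126 and 418 in wild-type sham, with no overlap. It fell by 2.89 ± 0.54 (SE) on the log2 scale (adjusted p = 0.00247). Stat2, a subunit of the complex that binds interferon response elements, was between 51.4 and 105 against 105 and 263, a difference of -1.08 ± 0.29 (SE; adjusted p = 0.0456; 0.0669 after TMM scaling). None of the 8 class II genes (0 at an unadjusted p under 0.05), the 7 other class I pathway genes (1) or the 10 receptor genes (2) was called. Ptprc ran from 137 to 410 in the STING-deficient libraries against 234 to 465 in wild-type sham, and the T cell marker sum from 124 to 251 against 167 to 256, and none of these markers was called (limma; Ptprc was not at an unadjusted p under 0.05, and 1 of the 7 T cell markers was). Neutrophil markers had the lowest median of the marker lists at -1.26 (2 of 3 at an unadjusted p under 0.05, none called), with sums of 1417 to 2357 against 1822 to 8786. Their part in the class I values was not tested.

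The agonist libraries of wild-type hosts were also set against STING-deficient sham libraries, the comparison named in the series text, which changes genotype and treatment together. These cannot be told apart, and the comparison shares its libraries with both comparisons above. All 9 genes were called higher in the agonist libraries, where 73.6% of tested genes were called higher and 0.581% lower. The median of the 9 was 2.07, against 1.35 over the panel. After TMM scaling 5 of 9 were called higher, where 18% of tested genes were.

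Nlrc5 again had the largest difference, 3.21 ± 0.61 (SE; adjusted p = 0.000365), a 9.24-fold change that ranked 21st and was 2.04 after TMM scaling. Psmb9 followed at 2.51 ± 0.56 (SE), then Tap1 at 2.30 ± 0.39 (SE), H2-T23 at 2.19 ± 0.41 (SE) and H2-K1 at 2.07 ± 0.47 (SE). These are the 5 that were called after TMM scaling, at 1.32, 1.10, 0.99 and 0.87 for the last 4. Psmb8 differed by 1.84 ± 0.41 (SE), Tap2 by 1.73 ± 0.44 (SE) and H2-D1 by 1.34 ± 0.31 (SE), none of them called after TMM scaling. Tapbp had the smallest difference, 0.79 ± 0.26 (SE; adjusted p = 0.0124), which turned to -0.41 after TMM scaling and was not called without agonist replicates 6, 7 and 8 (0.62) or without STING-deficient replicate 2 (0.61, adjusted p = 0.0691). In every gene all 8 agonist libraries were above the mean of the STING-deficient libraries, while STING-deficient replicate 1 overlapped the agonist range.

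The order of the group means was therefore the same for all 9 genes in the authors' scaling: agonist, wild-type sham, STING-deficient sham. The step between the last 2 was not resolved by the test for any of them.

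Ratios between genes of the same library do not depend on its scaling factor, apart from the 1 added to each value before the log. That added 1 weighs most on low genes such as Ciita and Tap2. The ratios were compared between groups for 6 pairs in 3 comparisons, 18 in all, with exact two-sided permutation tests and Benjamini-Hochberg adjustment. The 3 planned ratios to B2m were not analysed here. A ratio between probes is not a ratio of molecules, because probes differ in efficiency, so only its change between groups is read. Of the 18, 4 were called.

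The log2 ratio of H2-D1 to H2-K1 was 2.87 ± 0.24 (SD, n = 9) in wild-type sham and 2.24 ± 0.46 (SD, n = 8) after agonist. It lay between 2.49 and 3.22 in sham and between 1.64 and 2.89 after agonist, and 6 of 8 agonist libraries were below every sham library. The difference was -0.63 ± 0.18 (SE; exact permutation p = 0.00387, adjusted p = 0.0252): H2-K1 rose more than H2-D1. The promoter windows of these genes, shown above, hold the same matches in the same order. Any link between the matches and this ratio was not tested. In the agonist replicates 1 to 8 the ratio was 1.86, 2.003, 2.47, 2.89, 2.83, 2.31, 1.91 and 1.64. Replicates 4 and 5, where class I was lowest, were the 2 within the sham range. The STING-deficient libraries were at 2.97 ± 0.30 (SD, n = 4), not distinguished from wild-type sham (difference 0.09, adjusted exact permutation p = 0.719). Without agonist replicates 6, 7 and 8 the difference was -0.46 with an adjusted exact permutation p of 0.143.

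The log2 ratio of Psmb9 to Psmb8 rose from -2.35 ± 0.28 (SD, n = 9) in wild-type sham to -1.74 ± 0.48 (SD, n = 8) after agonist, by 0.62 ± 0.19 (SE; exact permutation p = 0.00543, adjusted p = 0.0252). The 3 highest libraries stood apart: replicates 6, 7 and 8 were at -1.12, -1.22 and -1.19, while replicates 1 to 5 were between -2.24 and -1.78 and sham between -2.75 and -1.83. These are the 3 libraries written with 2 decimals. Without them the difference was 0.28 with an adjusted exact permutation p of 0.170, and leaving out any of replicates 3, 6, 7 or 8 alone gave an adjusted exact permutation p between 0.0511 and 0.0519. The same libraries were lowest for Tap1 to Psmb9, at 0.08, 0.33 and 0.24, where the other 5 agonist libraries were between 0.88 and 2.25; that ratio was not called (difference -0.37 ± 0.29, SE; adjusted exact permutation p = 0.303), and it was 0.07 without the 3. The windows of Tap1 and Psmb9 share 275 bases. Their ratio ranged over more than 2 log2 units within the agonist group, from those 3 libraries to replicate 2 at 2.25. Any link between the shared bases and this ratio was not tested.

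Nlrc5 and Ciita are the transactivators of class I and class II. Their log2 ratio was 2.82 ± 0.49 (SD, n = 9) in wild-type sham, 3.31 ± 0.52 (SD, n = 8) after agonist and 1.46 ± 0.66 (SD, n = 4) in STING-deficient sham. The STING-deficient libraries were at 2.13, 0.61, 1.81 and 1.29, of which 3 were below the lowest wild-type sham library at 2.01. The difference from wild-type sham was -1.35 ± 0.37 (SE; exact permutation p = 0.00559, adjusted p = 0.0252). All 8 agonist libraries, from 2.23 to 3.72, were above all 4 STING-deficient libraries, a difference of 1.84 ± 0.38 (SE; exact permutation p = 0.00404, adjusted p = 0.0252). The agonist and wild-type sham groups were not distinguished (0.49 ± 0.25, SE; adjusted exact permutation p = 0.126). With 10 in place of 1 added to each value, that difference was 0.80 with an adjusted exact permutation p of 0.0364. Implied counts behind this ratio were low, with 5 to 32 for Ciita per STING-deficient library and 9 to 27 per wild-type sham library. The 2 calls against the STING-deficient libraries were lost without STING-deficient replicate 2, 3 or 4 (adjusted exact permutation p from 0.0655 to 0.0818). The 2 differences were then -1.07 and 1.56 without replicate 2, -1.47 and 1.96 without replicate 3, and -1.30 and 1.79 without replicate 4. Fewer libraries also raise the smallest p that an exact permutation can reach, so a lost call does not by itself show a smaller difference. Both calls were also lost without agonist replicates 6, 7 and 8 (adjusted exact permutation p = 0.101 for both). In that setting the first difference stayed at -1.35, since no agonist library enters it and only the adjustment over the 18 comparisons changed, and the other was 1.75.

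**Figure D4:**
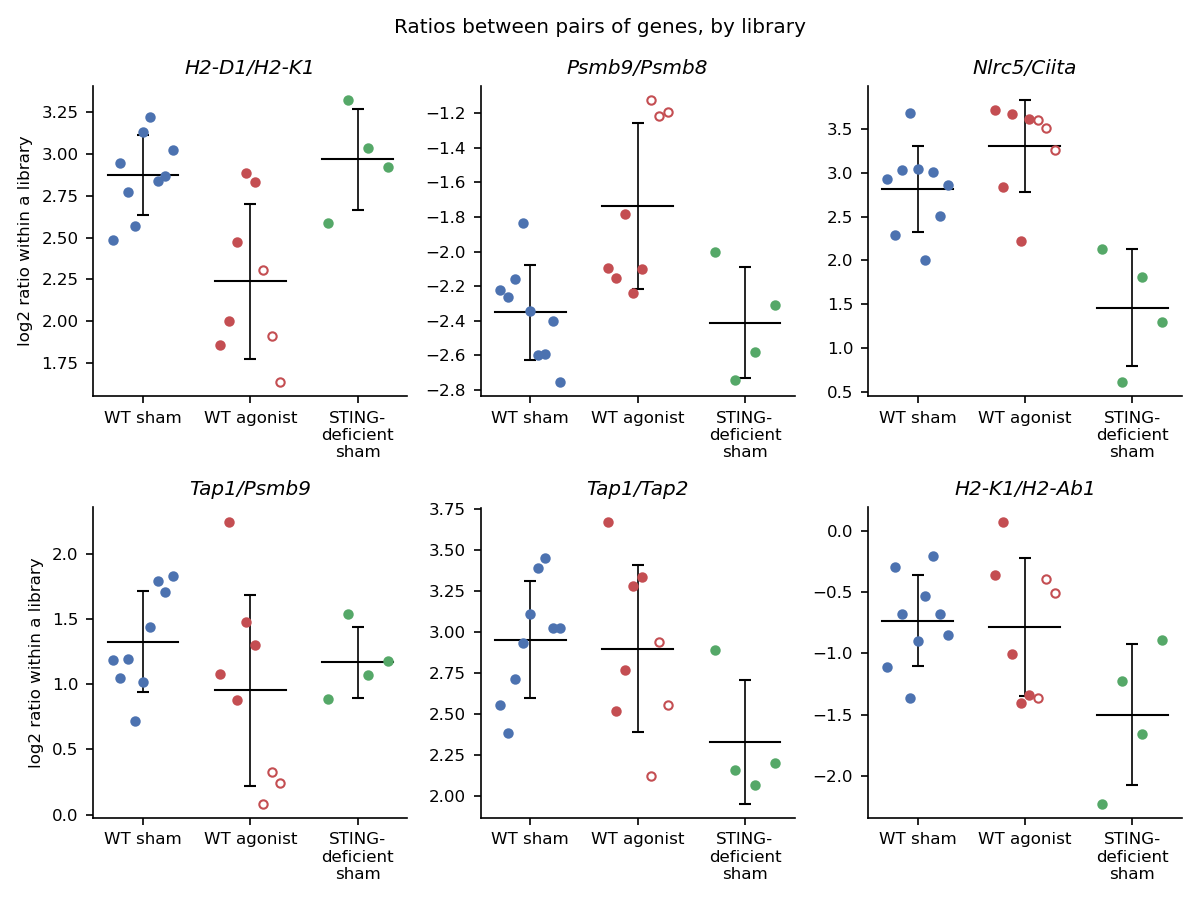
Log2 ratio of 6 gene pairs within each library, by group. Points are libraries, open points are agonist replicates 6, 7 and 8, and bars are group means with SD; these 3 sit apart at -1.12 to -1.22 for Psmb9 to Psmb8, and the H2-D1 to H2-K1 ratio is below the sham range in 6 of 8 agonist libraries.

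The remaining ratios were not called. Tap1 to Tap2 was 2.95 ± 0.36 (SD, n = 9) in wild-type sham and 2.90 ± 0.51 (SD, n = 8) after agonist, a difference of -0.05 ± 0.22 (SE; adjusted exact permutation p = 0.822). It was 2.33 ± 0.38 (SD, n = 4) in STING-deficient sham, -0.62 ± 0.22 (SE) from wild-type sham, with 3 of 4 libraries below the sham range and an adjusted exact permutation p of 0.0575. H2-K1 to H2-Ab1, class I against class II, was -0.74 ± 0.37 (SD, n = 9) in wild-type sham and -0.79 ± 0.56 (SD, n = 8) after agonist, a difference of -0.05 ± 0.23 (SE; adjusted exact permutation p = 0.822). In STING-deficient sham it was -1.50 ± 0.58 (SD, n = 4), with a difference of -0.76 ± 0.31 (SE; adjusted exact permutation p = 0.0575). After agonist the change in this ratio was smaller than its SE, and in STING-deficient sham 2 of 4 libraries were below the wild-type range.

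The 9 genes did not all follow the same profile over the 21 libraries. Likeness was measured as the root mean square difference of log2 values, each gene set against its wild-type sham mean, where a smaller value is a closer profile. Psmb8 (0.21), H2-T23 (0.22), Tap1 (0.24) and H2-K1 (0.27) lay closest to the mean of the 9, while H2-D1 (0.36), Tap2 (0.37) and Psmb9 (0.42) were farther. Tapbp (0.57) and Nlrc5 (0.63) were farthest, Tapbp with the smallest changes and Nlrc5 with the largest. The mean contains each member, which draws members toward it. Outside the set, genes near to that mean included Klrd1 (0.24), the DNA sensor Tlr9 (0.27) and the myeloid and B cell factor Irf8 (0.30).

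Among the members, H2-D1 and Tapbp were each other's nearest (0.29), as were H2-T23 and Psmb8 (0.30) and Psmb9 and Nlrc5 (0.43). The nearest member to H2-K1 was H2-T23 (0.35) and not H2-D1, and the nearest to Tap1 was Psmb8 (0.31) and not Tap2. Nearest genes outside the set were Ptprc for H2-K1 (0.30), Irf5 for H2-D1 (0.25), Tlr9 for H2-T23 (0.28) and Klrd1 for both Tap1 (0.31) and Psmb8 (0.30). They were Cybb for Tap2 (0.36), Crebbp for Tapbp (0.27), Cyfip2 for Psmb9 (0.33) and Irgm2, an interferon-inducible GTPase, for Nlrc5 (0.42). These distances describe the 21 libraries, which share 3 groups and their scaling factors, and carry no test.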

How the data were processed

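NanoString values of 750 genes were read from a deposited matrix of 21 libraries. The authors deposited scaled signal values (linear, not log), and their software and control probes are not stated in the labels or files. In each library at least 99.6% of the lower values were whole multiples, within 0.1, of a step from 0.65 to 1.41, as counts times a factor would be. The implied counts sum to 256573 to 763976 per library, and no value was 0. The deposited library files equalled the matrix within 0.05, and no libraries of a group agreed within sampling noise (lowest chi-square per degree of freedom 7.45).

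The 9 genes and 689 in all (a value of at least 20 in at least 4 libraries) were tested on log2(value + 1), which understates fold changes of low genes, with limma 3.58.1 (eBayes with trend and robust, R 4.3.3) fitted to the 3 groups, 3 two-sided contrasts and Benjamini-Hochberg adjustment at 0.05. Adjusted p-values of genes are limma's. Genes high after agonist alone can pass the filter. TMM scaling was computed without weights, trimming 30% of log ratios and 5% of levels. Ratios were tested with exact permutation tests (scipy 1.17.1). The tests were checked on simulated data. Promoters are RefSeq's, matched by symbol.

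The members, gene lists and tests were chosen with earlier results of these data known. Named genes were all members, the 4 genes per list with the lowest adjusted p after agonist, and the nearest profiles, of which some are not reported here; Irf7 and Stat2 were named after their values were seen in the genotype comparison. After agonist 2 of 3 tested B cell, 3 of 3 dendritic and 1 of 3 neutrophil markers were called higher. So were 5 of 5 endothelial, 2 of 4 fibroblast, 2 of 2 epithelial and 1 of 1 lung markers. In the same test 71.1% of the 689 genes were called higher. After TMM scaling (limma) 1 of 3 B cell markers was called higher and none in the other lists named here. The same counts held at an unadjusted p under 0.05.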

Additional observations from a re-analysis of the deposited data

Results flagged for a closer look

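The log2 ratio of Tap1 to Tap2 in STING-deficient replicate 1 was 2.89, far from the other 3 libraries of its group, which lay between 2.07 and 2.20. Its gap to the nearest of them was 0.837 of the group's range, above Dixon's critical value of 0.829 for 4 libraries. It was the single such value among 45 groups of gene and ratio values examined, where chance flags about 1 in 20. The same library had the highest value of its group for each of the 9 class I genes. Without it the difference of this ratio from wild-type sham was -0.81, with an adjusted exact permutation p of 0.0312.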

How the results depend on the processing

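Taking no filter on low values or a minimum of 50 kept every call of the 9 genes in the 3 comparisons; so did a pseudocount of 10, fitting the compared groups alone and the replicate block. TMM scaling changed the count of genes called after agonist from 495 to 192 (65 higher and 127 lower) and of class I genes from 9 to 0; against STING-deficient sham it gave 274 genes (124 higher and 150 lower) and 5 class I genes. Without agonist replicates 6, 7 and 8 the agonist counts were 3 and 0, and with TMM as well they were 0 (limma; 156 genes at an unadjusted p under 0.05) and 0, and 181 and 3 against STING-deficient sham. H2-D1 after agonist was -0.013 with TMM. Tapbp after agonist was -0.23 with TMM, -0.11 with TMM and without those 3 libraries and -0.21 with TMM and the replicate block. Under genotype it was 0.18, 0.18 and 0.12 in the same order, and against STING-deficient sham -0.41, -0.30 and -0.33. These 2 alternatives that join TMM with another choice were added after seeing the data. Genes called by genotype, 19 as reported, were 11 with a pseudocount of 10 and 82 when the 2 groups were fitted alone (2 higher and 80 lower), with 0 class I genes in each. The cause of these changes was not tested.

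Ratios called, 4 as reported, were 9 with a pseudocount of 10 and 0 without agonist replicates 6, 7 and 8. With the pseudocount Tap1 to Tap2 after agonist turned to 0.13 and Psmb9 to Psmb8 under genotype to 0.048. Without the 3 libraries Tap1 to Tap2 after agonist turned to 0.16, and Tap1 to Psmb9 to 0.071 and, against STING-deficient sham, 0.23.

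Leaving out each library in turn gave 435 to 544 genes called after agonist, 420 to 548 against STING-deficient sham and 8 to 22 by genotype, with 9 to 9, 8 to 9 and 0 to 1 class I genes, and 2 to 9 ratios. Genotype calls were 10, 11 and 12 without wild-type sham replicates 1, 4 and 7, and 8, 8 and 9 without STING-deficient replicates 2, 3 and 4. Ratios called were 9 without agonist replicate 4, 7 without STING-deficient replicate 1, and 2 without STING-deficient replicate 2, 3 or 4. Ranges that crossed 0 were those of uncalled values: Tapbp by genotype (-0.33 to 0.072), H2-K1 to H2-Ab1 after agonist (-0.17 to 0.037), Psmb9 to Psmb8 by genotype (-0.19 to 0.053), Tap1 to Tap2 after agonist (-0.16 to 0.057) and H2-D1 to H2-K1 by genotype (-0.025 to 0.22).

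Correlations of the deviations of libraries with the same replicate number ran from -0.20 to 0.61 in 16 pairs. Some pairs deviated together, but not every pair was over 0.1 in any comparison. These correlations do not settle whether the libraries are paired. The labels do not say that the numbers pair them, so the main fit had no block. With the replicate block the counts were 424 genes after agonist, 11 by genotype and 403 against STING-deficient sham, with 9, 0 and 9 class I genes; with TMM and the block they were 141, 1 class I gene, 207 and 5. No ratio was called with the block (0). The 4 differences called without it were then -0.62 (H2-D1 to H2-K1 after agonist), 0.56 (Psmb9 to Psmb8 after agonist), -1.52 and 1.65 (Nlrc5 to Ciita by genotype and against STING-deficient sham), and in the last 2 comparisons an exact permutation of 4 pairs cannot go below p = 0.125. Tap1 to Psmb9 turned to 0.13 by genotype and 0.25 against STING-deficient sham. The planned count test was not run, because the deposited unit is a scaled signal and a small share of values in some libraries did not come out whole. Low implied counts limit Tap2, Nlrc5 and Ciita most.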
